A study of Mus musculus with 6 samples.

Results

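Astrocyte lineage genes were followed here as a group of 10: Gfap, S100b, Aqp4, Gja1, Slc1a2, Slc1a3, Glul, Aldoc, Aldh1l1 and Nfia. They were matched by NCBI gene identifier to mouse symbols, and all 10 were found among the 17254 genes with a count in any of 6 RNA-seq libraries. The libraries came from mouse neural stem and progenitor cells (NSPCs), with 2 libraries each of mock-treated control, PQ and NAC cultures after 48 h. PQ (paraquat, 5 µM) is a redox cycler that makes cells produce superoxide, and NAC (N-acetylcysteine, 5 mM) is a thiol antioxidant. The label of PQ replicate 1 states its dose, and for the other treated libraries the doses are those of the RNA-seq methods. The culture methods name a higher PQ dose, so the dose of PQ replicate 2 is not certain. The comparison asks how a more oxidising and a more reducing treatment change the transcriptome before differentiation is induced. According to the methods, all groups share an immortalised Ink/Arf-/- culture of neonatal origin, grown in N2 media with EGF and bFGF, that mixes quiescent and activated stem cells, neuronal precursors and oligodendroglial progenitors. The labels of control replicate 1 and PQ replicate 1 spell the genotype Ink/Ark knockout on the C57BL/6 strain, and the labels of the other libraries give neither genotype nor strain. The study states that the RNA-seq was replicated but not whether replicates were separate cultures, so p-values measure only the spread between these libraries, which may be technical.

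For every gene a library had an expected count, which is estimated and need not be whole because reads can be divided among genes, and an FPKM value, a level scaled for transcript length and sequencing depth. Totals of expected counts were 9849392 and 10040827 for control, 10388731 and 9680436 for PQ and 10698241 and 9907726 for NAC. Control replicate 1 and PQ replicate 1 were labelled as Illumina libraries, and the remaining 4 as BGISEQ libraries, among them both NAC libraries. NAC therefore has no library with the Illumina label, and within-label values are given beside the results. In every sentence below, libraries of a group are listed in the order of replicate 1 and replicate 2.

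Astrocytes are the glial cells that clear glutamate and potassium from around synapses, supply metabolites to neurons and line blood vessels with their endfeet. During brain development neural stem cells make neurons first and astrocytes later, a switch that depends on nuclear factor I proteins, Notch and the JAK-STAT pathway. Neural stem cells already express several genes of mature astrocytes, so that such genes are usually read as a set.

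The labels place these cultures in a progenitor state, and the 10 genes covered a wide range of levels in them. In the control libraries Gja1 had the highest mean level, 126 ± 3.09 FPKM (SD, n = 2), followed by Slc1a3 with 99.0 ± 9.86, Aldoc with 44.2 ± 3.35, Glul with 28.6 ± 1.75 and Nfia with 11.3 ± 0.827 FPKM. Slc1a2 stood at 3.79 ± 0.0636, Gfap at 1.90 ± 0.375, Aldh1l1 at 1.23 ± 0.163, Aqp4 at 0.745 ± 0.0636 and S100b at 0.635 ± 0.304 FPKM. Only the last neighbours in this order, Aqp4 and S100b, had overlapping control libraries. Gja1 and Slc1a3, which stem cells and astrocytes both express, were abundant, while Gfap, Aqp4 and S100b, which are used to mark mature astrocytes, were near 1 or 2 FPKM. Aqp4 and S100b had a control mean under 1 FPKM and passed the filter for testing, a mean of at least 1 FPKM over all 6 libraries, only through their NAC values. Their difference between NAC and the other groups was therefore favoured by the filter, and counts over the members are also given without them.

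**Figure D1:**
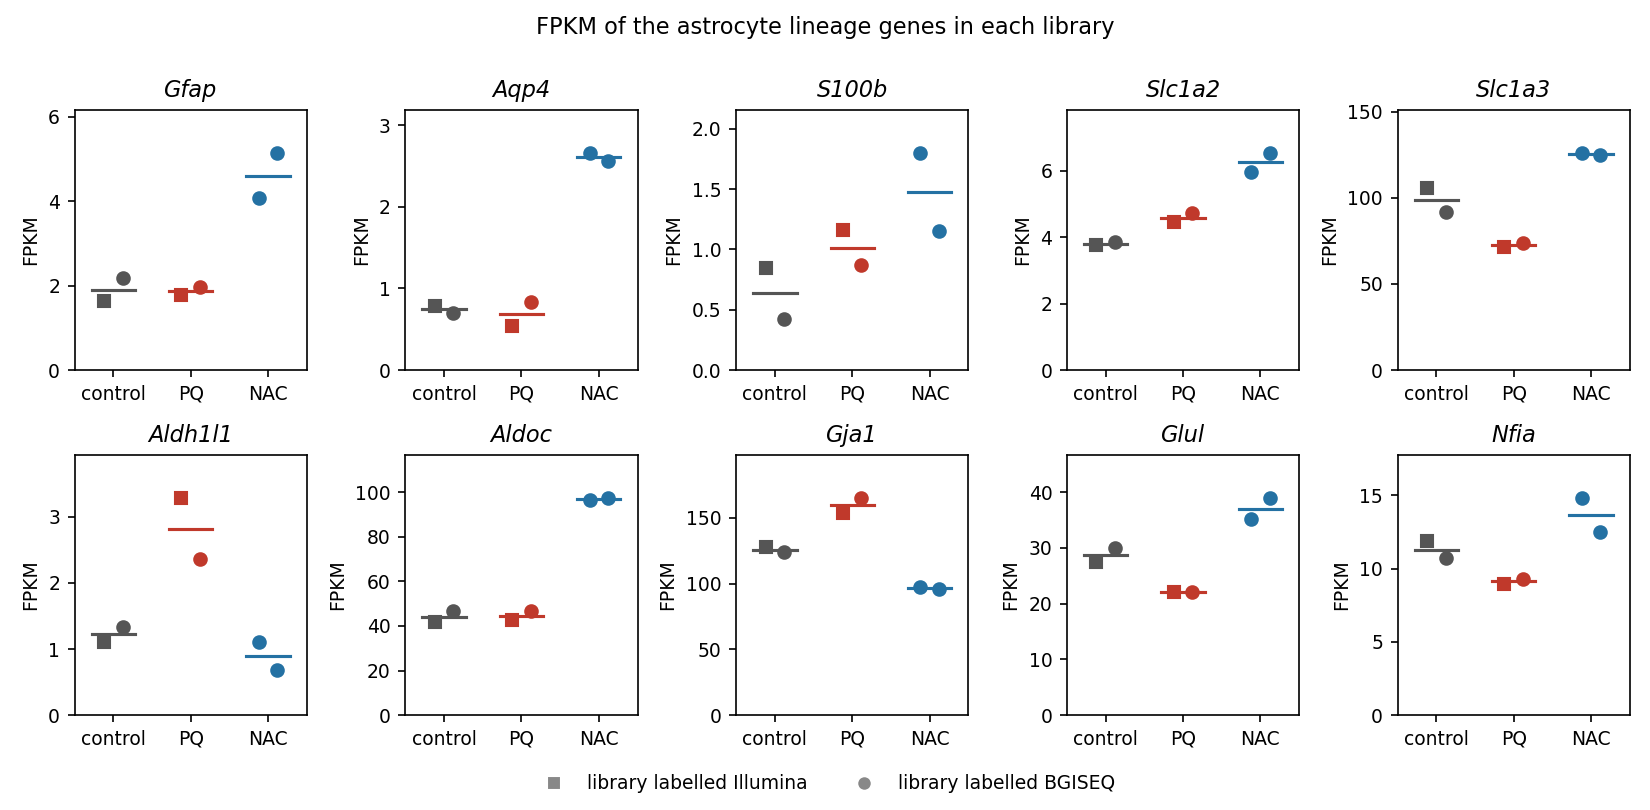
FPKM of each of the 10 genes (vertical axis, from 0) in control, PQ and NAC cultures. Points are libraries, squares for the Illumina label and circles for the BGISEQ label, and lines are group means of 2 libraries. The NAC libraries sit highest for Gfap, Aqp4, Slc1a2, Slc1a3, Aldoc, Glul and Nfia and lowest for Gja1, and the PQ libraries sit highest for Aldh1l1.

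Both treatments moved genes of the group in both directions. Against control, NAC gave higher values for 6 of the 10 genes, Gfap, Aqp4, Slc1a2, Slc1a3, Aldoc and Glul, while 9.01% of the 11717 genes tested were called higher (edgeR's quasi-likelihood test, adjusted p under 0.05). It gave a lower value for 1 gene, Gja1, beside 9.64% of all genes tested. PQ gave higher values than control for 2 genes, Aldh1l1 and Gja1, beside 9.76% of all genes, and lower values for 3 genes, Slc1a3, Glul and Nfia, beside 9.45%. Between the treatments, 7 genes were lower in PQ than in NAC, beside 15.7% of all genes, and 2 were higher, beside 16.0%. The median log2 fold change of the 10 genes was -0.03 for PQ against control, 0.49 for NAC against control and -0.64 for PQ against NAC, and the median of all genes tested was 0.00 in each. With genes filtered on the control libraries alone, a choice made after seeing the data, 8 of the 10 genes were tested, of which PQ changed 5 and NAC changed 6 against control and 8 differed between PQ and NAC. The medians were then -0.03, 0.32 and -0.64. Each comparison shares libraries with the others, and so they are not independent of each other. In these bulk samples, more cells of a type and more RNA per cell cannot be told apart.

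The PQ count depended on single libraries. Without PQ replicate 1, 1 of the 10 genes was called in PQ against control, and without PQ replicate 2, 2 genes were called. Calls over all genes were fewer too: 2250 of 11717 in the fit over all libraries, 866 without PQ replicate 1 and 1506 without PQ replicate 2. Without PQ replicate 1 the PQ log2 fold change was still -0.44 for Slc1a3, the gene called, with 0.38 for Gja1 and -0.39 for Glul. The counts for NAC against control ranged from 5 to 7 and those for PQ against NAC from 8 to 9 when each library in turn was left out.

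**Figure D2:**
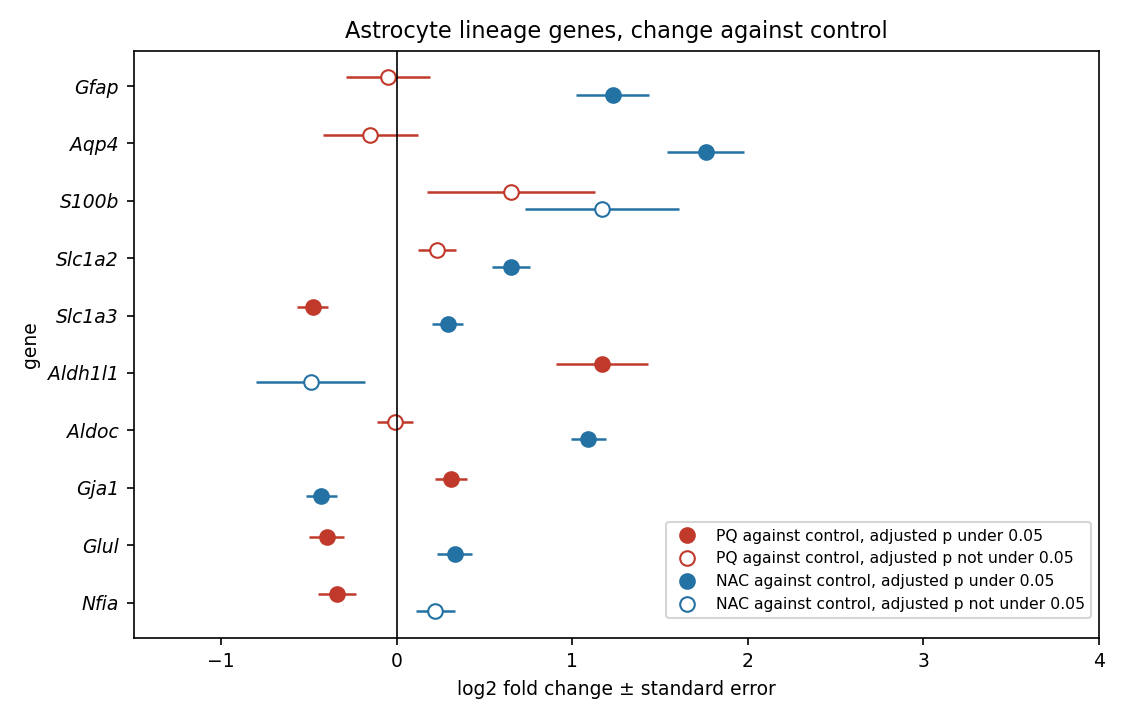
Log2 fold change against control (horizontal axis) with its standard error for the 10 genes, from the fit over all 6 libraries. Filled points had an adjusted p under 0.05. Gfap, Aqp4 and Aldoc moved by more than 1 with NAC and lay near 0 with PQ, and Slc1a3, Glul and Gja1 moved in opposite directions with the treatments.

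Gfap, the intermediate filament protein by which astrocytes are most often stained (NCBI gene 14580, mm9 chr11:102748650-102762226, minus strand), more than doubled with NAC. Its FPKM was 1.64 and 2.17 in control, 1.77 and 1.96 in PQ and 4.07 and 5.14 in NAC, from 44 to 139 expected counts. Both NAC libraries lay above all others, and the PQ libraries fell between the controls. The NAC rise was 2.35-fold (log2 fold change 1.23, SE 0.21, adjusted p = 3.1e-04 by edgeR), and it passed the threshold in all 15 alternative fits, with log2 fold changes from 0.95 to 1.43. Against the BGISEQ control alone, the NAC libraries were higher by 0.84 and 1.14 on the log2 scale. For PQ the log2 fold change was -0.05, with a 95% interval from -0.55 to 0.45. A change of Gfap within this range remains compatible with the spread between these libraries.

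S100b, a calcium-binding protein of astrocytes and of some progenitors (NCBI gene 20203, mm9 chr10:75716598-75723904, plus strand), was the least counted of the genes. It had 14 and 7 expected counts in control, 20 and 14 in PQ and 32 and 19 in NAC. In FPKM these were 0.850 and 0.420, 1.16 and 0.870, and 1.80 and 1.15. The NAC libraries lay above the controls. The differences were 1.52 and 0.98 on the log2 scale against the BGISEQ control, and 0.83 and 0.29 against the Illumina control. Yet the log2 fold change of 1.17 (SE 0.44) had an adjusted p of 0.074 by edgeR, and it ranged from 0.60 to 1.77 over the alternatives. It was called in 3 of 14 alternatives, without control replicate 1 (adjusted p = 0.039), with the label as a covariate (0.042) and without a filter (0.049), and over all alternatives the adjusted p ranged from 0.039 to 0.42. The PQ value was 0.65, with an interval from -0.36 to 1.65.

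Aqp4, the water channel of astrocyte endfeet (NCBI gene 11829, mm9 chr18:15547903-15562193, minus strand), rose with NAC. It was measured at 0.790 and 0.700 FPKM in control, 0.540 and 0.830 in PQ and 2.66 and 2.56 in NAC, from 29 to 146 expected counts. Control and PQ libraries overlapped, and the NAC libraries stood well above both. The rise was 3.39-fold (log2 fold change 1.76, SE 0.22, adjusted p = 1.4e-05 by edgeR). Aqp4 passed the filter for testing only through its NAC values, which favoured this rise. Against the BGISEQ control alone the rise was 1.76 and 1.69 on the log2 scale. Even with NAC its level stayed below that of both glutamate transporters.

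Gja1 encodes connexin 43, the gap junction protein that couples astrocytes and also neural progenitors (NCBI gene 14609, mm9 chr10:56097106-56110225, plus strand), and it went the other way. Its FPKM was 128 and 124 in control, 154 and 165 in PQ and 97.7 and 96.0 in NAC, with no overlap between any of the groups. NAC lowered it to 0.744 of the control level (log2 fold change -0.43, SE 0.09, adjusted p = 0.0022 by edgeR), in all 15 alternatives, and by -0.37 and -0.41 against the BGISEQ control alone. PQ raised it 1.24-fold (log2 fold change 0.31, SE 0.09, adjusted p = 0.02), by 0.21 within the Illumina label and 0.41 within the BGISEQ label. The PQ call was lost without control replicate 2, without PQ replicate 1 or without PQ replicate 2, with adjusted p from 0.028 to 0.19 over the libraries left out.

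The glutamate transporters and glutamine synthetase act in sequence, since astrocytes take up glutamate through Slc1a2 and Slc1a3 and turn it into glutamine with Glul. Slc1a3 (GLAST; NCBI gene 20512, mm9 chr15:8584124-8660764, minus strand), which radial glia express early, had 106 and 92.0 FPKM in control, 71.3 and 73.7 in PQ and 126 and 125 in NAC. The 3 groups did not overlap. PQ lowered it to 0.719 of the control level (log2 fold change -0.48, SE 0.09, adjusted p = 0.0016 by edgeR), a call that held in all 15 alternatives, and by -0.62 within the Illumina label and -0.33 within the BGISEQ label. NAC raised it 1.23-fold (log2 fold change 0.29, SE 0.09, adjusted p = 0.034), by 0.42 and 0.39 against the BGISEQ control alone. That NAC call was lost without control replicate 2, either PQ library or either NAC library, with adjusted p from 0.0084 to 0.25 over the libraries left out, and with the label as a covariate, and it held in 8 of 15 alternatives.

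Slc1a2 (GLT-1; NCBI gene 20511, mm9 chr2:102498816-102630941, plus strand), the main glutamate transporter of the adult forebrain, was far less abundant than Slc1a3. Its FPKM was 3.75 and 3.84 in control, 4.45 and 4.72 in PQ and 5.97 and 6.53 in NAC. NAC raised it 1.57-fold (log2 fold change 0.65, SE 0.11, adjusted p = 2.0e-04 by edgeR) in all 15 alternatives, by 0.56 and 0.62 against the BGISEQ control alone. Both PQ libraries were above both controls, but the log2 fold change of 0.23, with a 95% interval from 0.00 to 0.45, had an adjusted p of 0.16.

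Glul (NCBI gene 14645, mm9 chr1:155747074-155756853, plus strand) followed Slc1a3. It stood at 27.4 and 29.9 FPKM in control, 22.1 and 22.1 in PQ and 35.2 and 38.9 in NAC, again without overlap. PQ lowered it to 0.759 of control (log2 fold change -0.40, SE 0.10, adjusted p = 0.0092 by edgeR) and NAC raised it 1.25-fold (log2 fold change 0.33, SE 0.10, adjusted p = 0.026). PQ differed by -0.35 within the Illumina label and -0.44 within the BGISEQ label, and the NAC libraries by 0.21 and 0.33 from the BGISEQ control. The PQ call was lost without PQ replicate 1 or without PQ replicate 2, with adjusted p up to 0.096 over the libraries left out. The NAC call was lost without control replicate 1 or without NAC replicate 2, with adjusted p up to 0.19, and with the label as a covariate, and it held in 11 of 15 alternatives.

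Aldoc, the aldolase of glycolysis that marks astrocytes and Purkinje cells in the brain (NCBI gene 11676, mm9 chr11:78136470-78141283, plus strand), changed with NAC only among the comparisons with control. Its FPKM was 41.8 and 46.5 in control, 42.7 and 46.6 in PQ and 96.6 and 97.3 in NAC. The NAC libraries were 2.13-fold higher than control (log2 fold change 1.09, SE 0.10, adjusted p = 3.6e-07 by edgeR), by 1.02 and 1.01 against the BGISEQ control and 1.16 and 1.15 against the Illumina control. PQ differed from control by -0.01, with a 95% interval from -0.22 to 0.20.

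Aldh1l1, a folate enzyme that oxidises formyl tetrahydrofolate and is used to label astrocytes (NCBI gene 107747, mm9 chr6:90436421-90550197, plus strand), was higher with PQ. It had 34 and 42 expected counts in control, 106 and 71 in PQ and 37 and 21 in NAC, or 1.11 and 1.34, 3.28 and 2.36, and 1.11 and 0.680 FPKM. Both PQ libraries lay above all others. PQ raised it 2.25-fold (log2 fold change 1.17, SE 0.26, adjusted p = 0.0035 by edgeR), by 1.39 within the Illumina label and 0.74 within the BGISEQ label, and the call was lost without PQ replicate 1, with a log2 fold change of 0.93 and adjusted p = 0.091. Over the other alternatives it was kept. The NAC log2 fold change was -0.49, with an interval from -1.13 to 0.16.

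Nfia, a nuclear factor I transcription factor needed for the onset of gliogenesis (NCBI gene 18027, mm9 chr4:97439425-97868605, plus strand), had 11.9 and 10.7 FPKM in control, 8.95 and 9.29 in PQ and 14.8 and 12.5 in NAC. PQ lowered it to 0.789 of control (log2 fold change -0.34, SE 0.11, adjusted p = 0.032 by edgeR), by -0.46 within the Illumina label and -0.22 within the BGISEQ label. This call held in 9 of 15 alternatives, with adjusted p from 0.012 to 0.23, and was lost without control replicate 1, without PQ replicate 1, without PQ replicate 2 and, among others, with both limma fits (0.12 and 0.11). The NAC log2 fold change of 0.22 had an interval from 0.00 to 0.44 and an adjusted p of 0.17.

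PQ against NAC sets the more oxidising treatment directly against the more reducing one. Of the 10 genes, 9 were called, the exception being S100b with a log2 fold change of -0.52 and a 95% interval from -1.37 to 0.32. In PQ, Aqp4 was lower than in NAC by a log2 fold change of -1.91, a difference that the filter favoured. Gfap was lower in PQ by -1.28, Aldoc by -1.10, Slc1a3 by -0.77, Glul by -0.72, Nfia by -0.56 and Slc1a2 by -0.42. Aldh1l1 was higher in PQ by 1.66 and Gja1 by 0.74. Their adjusted p by edgeR ranged from 1.6e-07 for Aldoc to 0.0044 for Slc1a2. Without PQ replicate 1, Slc1a2 had an adjusted p of 0.064, from a range of 0.0014 to 0.064 over all its alternatives. The FPKM of PQ and NAC libraries did not overlap for any of the 9. That separation comes from the same libraries as the calls and was not counted over all genes, so it is no separate support. With the label as a covariate 9 genes were called.

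Reads of some of these genes may be shared. On mm9, exons of Slc1a2, Aldh1l1, Glul and Nfia overlap exons of a gene on the opposite strand, Gm13872, Gm15756, 5830403L16Rik and E130114P18Rik in that order. The methods name a stranded Illumina library kit, while the labels of 4 libraries name BGISEQ. Whether counting used the strand is not given in the sources used here, so reads of these pairs may not have been told apart.

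Promoter sequences are shown for members that the treatments moved in opposite directions (Slc1a3, Glul and Gja1) and for Aldoc, which had the smallest adjusted p with NAC among the 10 genes. They are the 250 bases before the annotated start, 5′ to 3′ on the gene's strand, from RefSeq on GRCm38.p6: Slc1a3 at chr15:8710808-8711057 (minus strand), Glul at chr1:153899679-153899928 (plus), Aldoc at chr11:78322823-78323072 (plus, the first of its 2 starts) and Gja1 at chr10:56377050-56377299 (plus). Capitals mark matches on either strand to the nuclear factor I core TTGGC, to the STAT motif TTCNNNGAA, or to the AP-1 motif TGACTCA or TGAGTCA.
Slc1a3: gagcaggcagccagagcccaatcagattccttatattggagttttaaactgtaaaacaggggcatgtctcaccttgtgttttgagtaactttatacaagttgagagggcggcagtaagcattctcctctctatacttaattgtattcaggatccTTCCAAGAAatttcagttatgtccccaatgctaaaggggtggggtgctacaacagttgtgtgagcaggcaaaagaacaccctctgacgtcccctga
Glul: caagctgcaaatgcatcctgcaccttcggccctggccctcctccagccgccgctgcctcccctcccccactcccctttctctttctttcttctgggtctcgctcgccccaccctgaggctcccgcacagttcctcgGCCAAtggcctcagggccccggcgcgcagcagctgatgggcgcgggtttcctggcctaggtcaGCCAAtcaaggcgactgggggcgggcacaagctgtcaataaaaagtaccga
Aldoc: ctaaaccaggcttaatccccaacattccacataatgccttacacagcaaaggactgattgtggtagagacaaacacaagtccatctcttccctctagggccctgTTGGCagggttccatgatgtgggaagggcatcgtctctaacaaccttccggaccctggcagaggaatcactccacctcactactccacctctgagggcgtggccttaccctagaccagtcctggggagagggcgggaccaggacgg
Gja1: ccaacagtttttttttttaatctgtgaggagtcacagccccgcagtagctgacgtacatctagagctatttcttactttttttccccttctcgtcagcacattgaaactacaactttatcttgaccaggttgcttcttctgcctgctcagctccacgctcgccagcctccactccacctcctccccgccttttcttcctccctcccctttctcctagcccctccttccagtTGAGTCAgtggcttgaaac

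The motifs were chosen after the sequences had been seen, for the factors of the gliogenic switch and the stress-responsive AP-1. Entries of 9 of the 10 genes were searched, with 10 starts in all, and Aqp4 was left out of the search. Glul held 2 nuclear factor I cores, both of which overlap a CCAAT box, and Aldoc held 1. Among the promoters not printed, S100b held 3 such cores, 2 of them overlapping CCAAT, and Slc1a2 held 1. The core occurs in 41.5% of 32851 promoter windows of this length and CCAAT in 33.8%. A STAT motif, found in 7.02% of windows, was present once in Slc1a3 and at 2 places in the other start of Aldoc. Gja1 held the only AP-1 motif among the 10 starts, and 4.46% of all windows hold one. A match is a run of letters and was not measured here as a bound site.

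Other astrocyte-enriched genes were mostly higher with NAC. The shares of all genes called, given above beside the 10 genes, hold for this and the further lists. Of a list of 30, 21 were tested, and NAC raised 14 and lowered 1, with a median log2 fold change of 0.60. PQ raised 5 and lowered 3, with a median of 0.03, and in PQ against NAC 2 were higher and 12 lower. Atp1b2, a subunit of the sodium pump and the most abundant in NAC but not in control or PQ, was at 83.2 and 96.9 FPKM in control, 111 and 97.2 in PQ and 189 and 204 in NAC (NAC log2 fold change 1.08, adjusted p = 3.6e-07 by edgeR). Acsbg1, an acyl-CoA synthetase, rose by 1.09, Mlc1, a membrane protein of endfeet, by 0.92, Kcnj10, the potassium channel Kir4.1, by 0.85, and Plpp3, a lipid phosphatase, by 0.82 with NAC. For PQ these had log2 fold changes of -0.07, -0.02, -0.09 and -0.23, none of which passed the test.

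Apoe, the lipid carrier secreted by astrocytes, rose with both agents. It was at 12.8 and 10.2 FPKM in control, 34.5 and 23.1 in PQ and 43.6 and 48.6 in NAC, with log2 fold changes of 1.30 (SE 0.17, adjusted p = 4.0e-05 by edgeR) and 1.96 (SE 0.17, adjusted p = 1.7e-07). Of the list 1 gene, Clu, is also in the interferon heatmap that the study drew from these libraries, and 4 genes, Gjb6, Slc39a12, Cldn10 and Ntsr2, had at most 3 counts in every library, so that they were not detectable at this depth. The summed FPKM of the 30 genes was 698 and 736 in control, 828 and 765 in PQ and 1135 and 1210 in NAC.

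**Figure D3:**
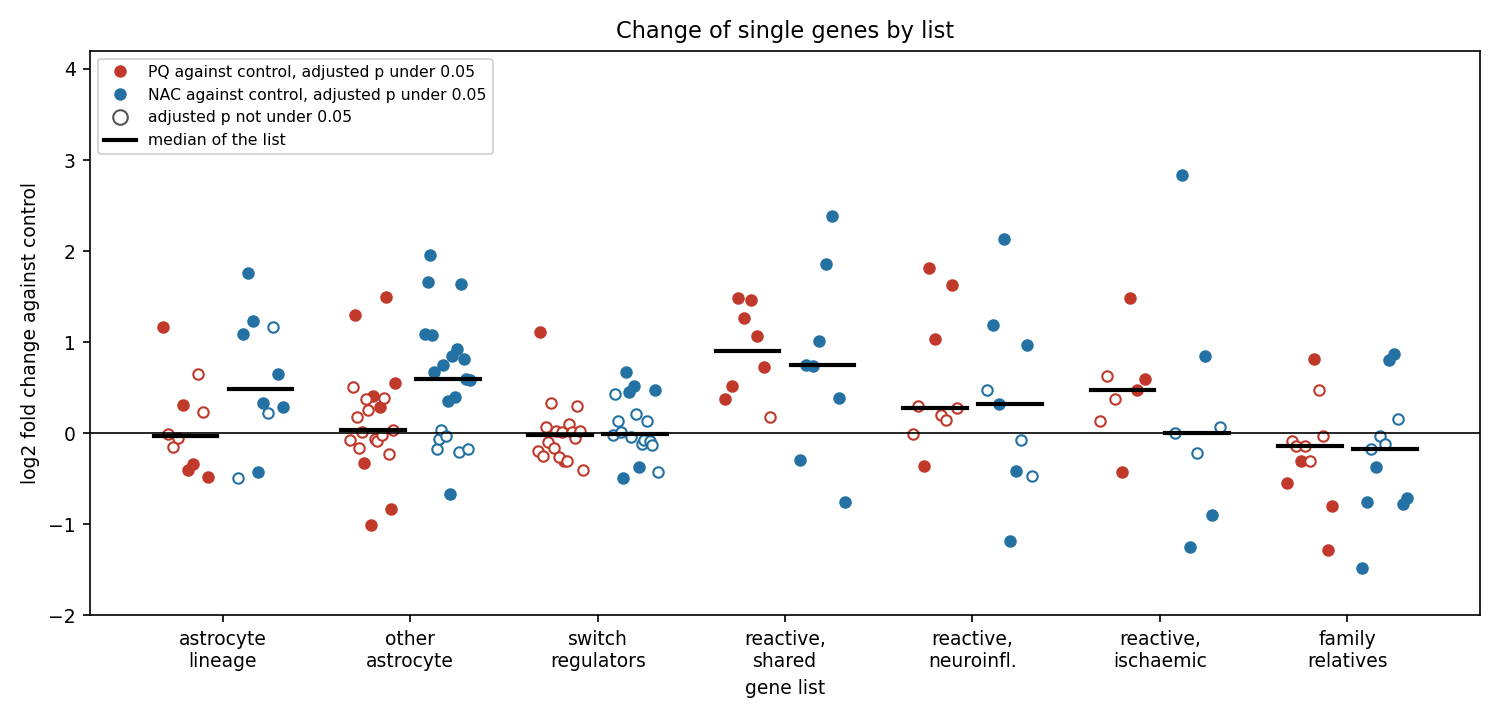
Log2 fold change against control (vertical axis) of every tested gene in the 10 astrocyte lineage genes and 6 further lists, for PQ in red and NAC in blue. Filled points had an adjusted p under 0.05 and black bars are medians. The NAC medians of the lineage genes and of the other astrocyte genes are 0.49 and 0.60 with PQ medians near 0, while the genes shared by reactive astrocytes have a median of 0.90 with PQ and 0.74 with NAC.

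Of 20 listed regulators of the switch to astrocyte production 18 were tested. NAC raised 4 and lowered 2, beside 9.01% and 9.64% of all genes tested, with a median of 0.00. PQ raised 1 and lowered 1, beside 9.76% and 9.45%, with a median of -0.02. In PQ against NAC 3 were higher and 5 lower, beside 16.0% and 15.7%. With NAC the transcription factor Stat3 rose by 0.47 (adjusted p = 0.0015 by edgeR), the cytokine receptor subunits Lifr by 0.52 and Il6st by 0.45, and Id3, a target of BMP signalling, by 0.67. Of the same cytokine pathway and chosen after their values were seen, Jak1 had a NAC log2 fold change of -0.04 and Socs3 of -0.09, and neither passed the test. Id1, another such target and chosen after its values were seen, was lowered by -0.49 with NAC (adjusted p = 0.024). Stat3, which led the list in NAC but not in control or PQ, was at 46.6 and 53.3 FPKM in control, 53.0 and 50.4 in PQ and 68.1 and 75.3 in NAC. PQ raised the ciliary neurotrophic factor receptor Cntfr by 1.11 (adjusted p = 3.6e-04), and its NAC value of 0.43 did not pass the test. Nfib, a relative of Nfia, was lowered by -0.31 with PQ and -0.37 with NAC, the latter unlike Nfia, whose NAC value was above 0. Hes5, a Notch target, had at most 3 counts in every library.

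Genes shared by reactive astrocytes of injury and inflammation were mostly higher with both agents. Of 12 such genes 8 were tested, and PQ raised 7 and lowered 0 by edgeR, also 0 at an unadjusted p under 0.05 and 0 by DESeq2, whereas NAC raised 6 and lowered 2. Between the treatments 4 were higher in PQ and 2 lower. Lcn2, an iron-binding secreted protein, was at 82.8 and 68.3 FPKM in control, 202 and 166 in PQ and 152 and 162 in NAC, with log2 fold changes of 1.26 and 1.01. The protease inhibitor Serpina3n rose by 1.46 and 1.86, the metalloreductase Steap4 by 1.07 and 2.38, and ceruloplasmin (Cp) by 0.52 and 0.75, PQ first. The chemokine Cxcl10, which is also in that heatmap and is no independent evidence, rose by 1.48 and 0.74.

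Vim, an intermediate filament protein of progenitors and reactive astrocytes and the most abundant of these genes, behaved unlike Gfap. It stood at 2171 and 2323 FPKM in control, 2547 and 2647 in PQ and 1362 and 1389 in NAC. NAC lowered it by -0.75 on the log2 scale (SE 0.08, adjusted p = 3.8e-06 by edgeR), and the PQ value was 0.18 (adjusted p = 0.14).

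The lists named for neuroinflammatory and ischaemic reactive astrocytes were split. Of 9 tested genes of the neuroinflammatory type PQ raised 3 and lowered 1, NAC raised 4 and lowered 2, and PQ against NAC gave 4 higher and 3 lower. Gbp2, an interferon-inducible GTPase, rose by 1.81 with PQ and 2.13 with NAC, and Iigp1, of a related family, by 1.63 and 0.97. Ggta1, a galactosyltransferase, rose by 1.04 with PQ and was lowered by -1.18 with NAC. Complement C3 rose by 1.19 with NAC, and the co-chaperone Fkbp5 was lowered by -0.36 with PQ and raised by 0.32 with NAC. H2-D1, the most abundant of them and a class I antigen, was lowered by -0.41 with NAC. In this list 2 genes, Serping1 and Psmb8, are also in the interferon heatmap of the study.

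Of 7 tested genes of the ischaemic type PQ raised 3 and lowered 1, NAC raised 2 and lowered 2, and PQ against NAC gave 4 higher and 1 lower. Cd14, a receptor for bacterial lipopolysaccharide, had the greatest change with NAC: 3.15 and 2.55 FPKM in control, 5.38 and 3.55 in PQ and 20.7 and 21.6 in NAC, a log2 fold change of 2.84 (SE 0.19, adjusted p = 1.6e-08 by edgeR). S100a10, an annexin partner and the most abundant of the list, rose by 0.47 with PQ and was lowered by -0.90 with NAC. Ptgs2, cyclooxygenase 2, rose by 1.48 with PQ and 0.85 with NAC, and Tm4sf1 rose by 0.59 with PQ. Emp1 was lowered by -0.43 with PQ, and the cytokine Clcf1 was lowered by -1.25 with NAC.

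Family relatives of the 10 genes were more often lower than higher with NAC. Of these relatives Nfib and Nfix are also in the list of switch regulators and Gjb6 is in that of astrocyte-enriched genes. Of 20 relatives 11 were tested. NAC raised 2 and lowered 5, beside 9.01% and 9.64% of all genes tested, with a median of -0.17. PQ raised 1 and lowered 4, beside 9.76% and 9.45%, with a median of -0.14. In PQ against NAC 2 were higher and 1 lower, beside 16.0% and 15.7%. Aldoa, the ubiquitous aldolase, was at 1342 and 1665 FPKM in control, 1406 and 1477 in PQ and 812 and 1039 in NAC, a log2 fold change of -0.75 with NAC (SE 0.11, adjusted p = 9.0e-05 by edgeR) where Aldoc rose. Aldh1l2, the mitochondrial relative of Aldh1l1, was lowered by -0.55 with PQ and -1.48 with NAC, against the PQ rise of Aldh1l1. The neutral amino acid transporters Slc1a4 and Slc1a5, relatives of the glutamate transporters, were lowered by -1.28 and -0.80 with PQ and by -0.78 and -0.71 with NAC. S100a1 rose by 0.82 and 0.80, PQ first, and S100a13 rose by 0.87 with NAC. Gjb6, the other connexin of astrocytes, had at most 3 counts in every library.

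Markers of other cell types moved with NAC in part, and their part in the results was not tested. Neural stem and progenitor markers, 9 of 10 tested, summed to 1164 and 1078 FPKM in control, 1151 and 1098 in PQ and 1242 and 1133 in NAC, mostly from Fabp7 with 741 to 913 FPKM. NAC raised 0 of them by edgeR, 2 at an unadjusted p under 0.05 and 0 by DESeq2, and lowered 2, Nes by -0.28 and Sox2 by -0.31. PQ raised 2, Nes by 0.34 and Vcam1 by 0.52, and Sox2 was lower with PQ by -0.35.

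Oligodendrocyte lineage markers, 5 of 10 tested, summed to 707 and 815 FPKM in control, 833 and 732 in PQ and 872 and 991 in NAC. With NAC Olig1 rose by 0.41 and Pdgfra by 0.40, PQ changed 0 by edgeR, 1 at an unadjusted p under 0.05 and 0 by DESeq2, and 2 were lower in PQ than in NAC. Olig1 was the most abundant, Cnp is also in the heatmap of the study, and Sox10, Mog and Mag had at most 3 counts in every library. Neuronal markers summed to 39.4 and 37.3 FPKM in control, 36.2 and 36.7 in PQ and 67.0 and 60.6 in NAC, almost wholly from Map2, the 1 gene tested of 10, which rose by 0.77 with NAC and had a log2 fold change of -0.09 with PQ. Tubb3, not tested and chosen after its values were seen, was at 2.38 and 1.30 FPKM in control, 0.720 and 0.470 in PQ and 0.320 and 0.440 in NAC. Rbfox3, Stmn2 and Neurod1 had at most 3 counts in every library.

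Markers of ependymal cells and of cells outside the neural lineage were low. Microglia markers summed to at most 4.59 FPKM, with P2ry12 the most abundant and the 1 gene tested of 7, higher with NAC by 1.18, and Aif1, Tmem119, Csf1r and Ptprc had at most 3 counts in every library. Endothelial and mural markers summed to at most 0.600 FPKM, none of 6 was tested, and Cdh5, Kdr, Pdgfrb and Cldn5 had at most 3 counts, with Pecam1 the most abundant over all 6 libraries. Ependymal markers summed to between 7.28 and 10.3 FPKM, led by Foxj1, and of 3 tested genes each agent changed 0 against control by edgeR and by DESeq2, with 1 lower at an unadjusted p under 0.05 for NAC and 0 for PQ. Of 4 fibroblast markers Col3a1 was tested and led the sum of 3.60 to 5.55 FPKM, and it was lowered by -0.90 with PQ.

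**Figure D4:**
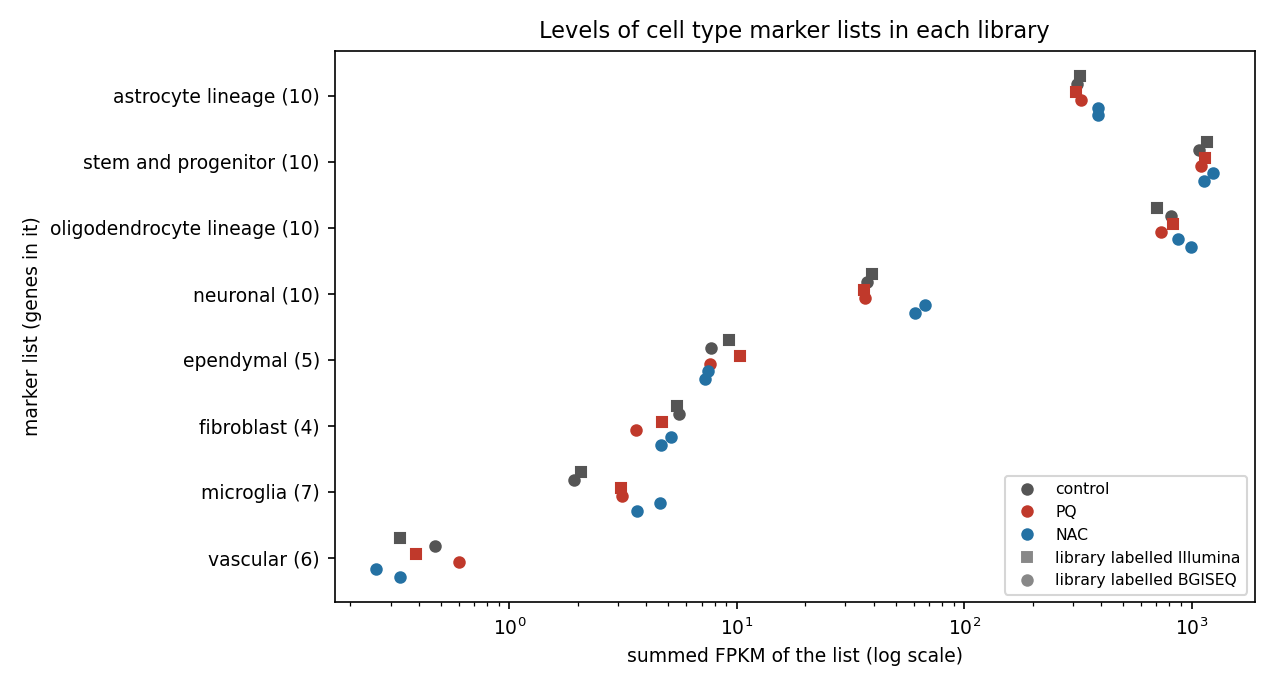
Summed FPKM (horizontal log axis) of each marker list in each of the 6 libraries, with group by colour and label by symbol. Progenitor and oligodendrocyte lineage lists sum to at least 707 FPKM and the astrocyte lineage genes to between 310 and 386, while microglia and vascular lists stay under 5.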

How the data were processed

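RNA-seq libraries of 2 control, 2 PQ and 2 NAC cultures were grouped by their labels. For every gene the authors deposited 2 values, the expected count and the FPKM. Per the labels' processing notes, control replicate 1 and PQ replicate 1 were made with TopHat2 2.0.11 and Cufflinks 2.1.1 on mm9, and the other libraries with HISAT2 2.0.4, Bowtie2 2.2.5 and RSEM on mm10, whereas the methods name TopHat on mm9 and Cufflinks. All 6 tables have the columns of RSEM, and a gene left out of a table was taken as 0. Symbols came from NCBI gene identifiers. Gene positions are those of GENCODE vM1 on mm9, and promoters those of RefSeq on GRCm38.p6.

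Expected counts were rounded to whole numbers and tested in R 4.3.3 with edgeR 4.0.16 (TMM, quasi-likelihood test, all 6 libraries, no covariate) after a filter that kept 11717 genes (mean FPKM of 1 or more). P-values are two-sided and adjusted by Benjamini-Hochberg over those genes, with a threshold of 0.05. Standard errors were derived from fold changes and F statistics. Within-label values are differences of log2(CPM + 0.5). The fit was tested on simulated data. Alternatives were DESeq2 1.42.0 and its size factors, limma 3.58.1 on log2(FPKM + 1) and log2(FPKM + 0.1), no filter, the 4 libraries compared, the label as a covariate, a replicate block and leaving out each library.

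The members and lists were chosen with earlier results of these data known, so no test over a list was run. From each further list, up to 6 tested genes with the smallest adjusted p in PQ or NAC against control, and the most abundant gene over all 6 libraries, were eligible to be named. Some marker genes are not reported here. Intervals cover the spread between these libraries, and at these totals 3 counts were taken as the floor of detection.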

Additional observations from a re-analysis of the deposited data

How the results depend on the processing

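Over the 3 comparisons and the alternatives, 444 log2 fold changes of the 10 genes were recomputed, of which 410 kept direction and side of the threshold, 24 lost the call, 3 gained it and 7 changed sign. All sign changes were in PQ against control, for genes close to 0: Aldoc was 0.02 under both limma fits, and with 1 library left out Aldoc ranged from -0.09 to 0.07, Gfap from -0.23 to 0.15 and Aqp4 from -0.49 to 0.14, positive without PQ replicate 1 in each and also without control replicate 2 for Aldoc and Gfap. The cause was not tested.

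The count called in PQ against control ranged from 1 to 5 with a library left out, where the lone library of a group is assumed to vary like the other groups. The median log2 fold change then ranged from -0.12 to 0.11 for PQ against control, 0.48 to 0.54 for NAC against control and -0.73 to -0.60 for PQ against NAC. With the label as a covariate the last was -0.75. With genes filtered on the control libraries, an alternative chosen after seeing the data, the NAC median was 0.32, because Aqp4 and S100b were no longer tested.

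Libraries were put into sets by matching their FPKM to the values behind the interferon heatmap of the study, not by their labels. The set numbers were used as a replicate block. Set 2 joined control replicate 1 and PQ replicate 1, of the Illumina label, with NAC replicate 2, of the BGISEQ label. Deviations of libraries in a set correlated by -0.11, -0.23 and 0.16 across genes, so the numbers were not read as pairs. With the replicate block 4 genes were called for PQ against control, 5 for NAC against control and 9 for PQ against NAC. Not called with the block were Nfia for PQ (adjusted p = 0.059) and Slc1a3 (0.071) and Glul (0.053) for NAC, each against control. Low counts limit S100b, Aqp4, Aldh1l1 and Gfap most.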
